A study of Mus musculus with 46 samples.

Results

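The 10 genes described here encode the core machinery of mitochondrial fusion and fission in the mouse. They were taken by gene symbol (Mfn1, Mfn2, Opa1, Oma1, Dnm1l, Fis1, Mff, Mief1, Mief2 and Mtfp1) and make up 10 of the 55487 genes listed for each library. The rule uses no measured values, but earlier results of these data were known when the genes were chosen. Bulk RNA sequencing covered 46 libraries in 11 groups from pancreatic islets and liver. The islets came from mice labelled Tfam control (5 female and 3 male libraries) or Tfam KO (4 female and 2 male), and from mice labelled Clec control or Clec KO. The Clec16a mice were kept on either of 2 diets, abbreviated RFD (4 control and 4 KO libraries) and HFD (6 control and 5 KO) and not spelled out in the labels. The livers were labelled control (6 libraries), Mfn DKO (4) or Tfam KO (3), and the sample descriptions of all 3 liver groups carry the letters AAV. The Mfn DKO livers allowed the other 8 genes to be read for higher or lower transcript levels after loss of the mitofusins Mfn1 and Mfn2. Islets had been cultured overnight before RNA isolation and livers flash frozen. The Cre driver, the deleted exons and the ages of the mice are not given in the sources used here. Both sexes were used, but sex is labelled only for the Tfam islets.

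Mitochondria form a network that is continually joined and divided. Mitofusins on facing outer membranes tether and fuse them, OPA1 fuses the inner membranes, and the protease OMA1 cuts OPA1 under stress, which stops inner-membrane fusion. Division is carried out by the dynamin-related GTPase DRP1, encoded by Dnm1l, which is drawn from the cytosol to the outer membrane by adaptor proteins. In beta cells and hepatocytes the balance of both processes is known to accompany changes in oxidative metabolism. TFAM packages mitochondrial DNA and takes part in its transcription, and CLEC16A takes part in mitophagy, the removal of damaged mitochondria.

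The sum of counts in a library lay between 55223041 and 83342809 for the Tfam islets, between 16235173 and 55810879 for the Clec16a islets, and between 41961114 and 56894510 for the livers. Levels below are in CPM, counts brought to a common library size, after TMM scaling, which divides each library by a factor that aligns most genes. Summed cell type markers, Alb and Ins1 are instead in CPM over the library total, without TMM scaling. Gaps between groups in these sums were read on that scale. Each experiment was fitted by itself with edgeR's quasi-likelihood test, and a gene was called at a Benjamini-Hochberg adjusted p of at most 0.05 over all genes tested. All 10 genes passed the filter on low counts in every comparison. As a check of the tissue labels, Alb, the major serum protein of hepatocytes, stood at 25245 to 94382 CPM in livers and 0.468 to 2.18 in islets, and the insulin gene Ins1 at 0 in every liver library. By its TMM factor and hepatocyte markers, a single liver library stood apart from its group. Tfam KO liver 2 had a TMM factor of 1.43, against 1.04 to 1.16 in the other 2 Tfam KO livers, and a summed level of 9 hepatocyte markers of 32647 CPM, against 72793 and 102320. The labels call the libraries biological replicates without saying which animals they came from, so p-values measure the spread between these samples. In bulk tissue, fewer cells of a type and less RNA per cell cannot be told apart.

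In the Mfn DKO livers, both targeted transcripts were at under 25% of control, and none of the 10 genes was called higher. The fission genes Mief2, Mtfp1 and Mief1 were called lower. Mfn1 (chr3:32529465-32579239, plus strand, GRCm38) encodes a mitofusin with strong tethering activity. It stood at 67.8, 82.5 and 88.3 CPM (lowest, median and highest) in the 6 controls and at 15.6, 21.8, 17.8 and 25.4 CPM in Mfn DKO 1 to 4. All 4 DKO livers lay far below every control, and the fitted difference was -2.0 (SE 0.15) on the log2 scale, or 24.9% of control (adjusted p = 2.6e-05). Mfn2 (chr4:147873599-147904704, minus strand) encodes the mitofusin that also links mitochondria to the endoplasmic reticulum. Its control values were 113, 163 and 191 CPM, and the DKO livers read 32.3, 38.4, 36.6 and 45.1 CPM. Again the groups did not overlap, at -2.04 (SE 0.16), or 24.3% of control (adjusted p = 3e-05). For both mitofusins DKO 1 was the lowest and DKO 4 the highest of the DKO livers.

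TPM values, which account for transcript length, allow the mitofusins to be set against each other. The ratio of Mfn2 to Mfn1 in TPM was 2.29 ± 0.378 (SD, n = 6) in control livers and 2.25 ± 0.196 (SD, n = 4) in Mfn DKO livers. The ranges, 1.63 to 2.67 and 2.07 to 2.43, overlapped. In control islets the ratio was above that of every control liver, from 2.74 to 4.42 over the 18 libraries.

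**Figure D1:**
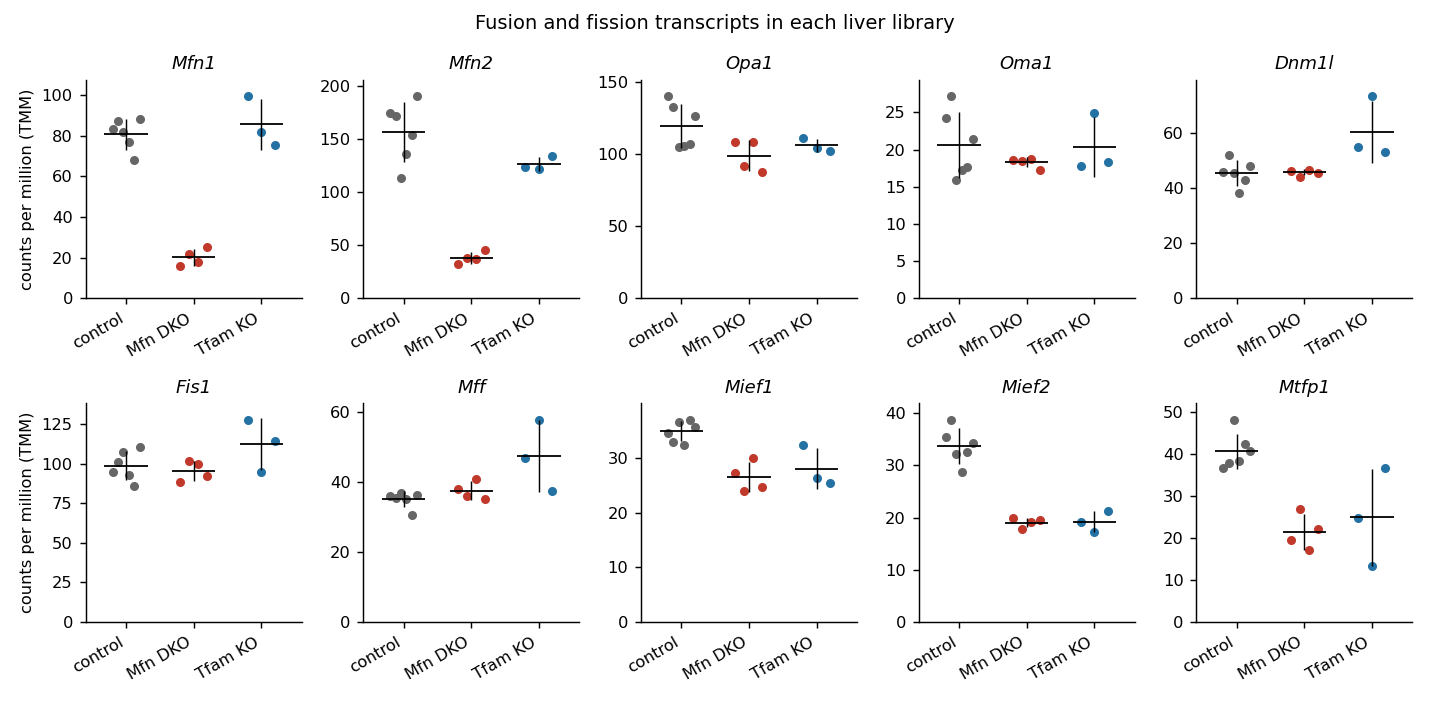
Level of each of the 10 genes in every liver library, in CPM after TMM scaling. Points are libraries, bars are group means and whiskers are SD (control n = 6, Mfn DKO n = 4, Tfam KO n = 3). Mfn1 and Mfn2 are low in the Mfn DKO group, while Mief2, Mief1 and Mtfp1 sit below control in both knockouts.

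The inner-membrane genes did not pass the test in the Mfn DKO livers. Opa1 (chr16:29579334-29654884, plus strand), the inner-membrane fusion GTPase, read 105, 117 and 140 CPM in controls and 108, 91.7, 108 and 87.2 CPM in the DKO livers. The groups overlapped, and the difference of -0.27 (SE 0.12, 95% interval -0.52 to -0.02) had an adjusted p of 0.15. Control livers themselves fell into a higher and a lower set for Opa1. It read 126 to 140 CPM in the 3 controls with Xist below 1 CPM and 105 to 107 CPM in the 3 with Xist above 100 CPM. The DKO livers showed the same order, at 108 CPM in both libraries low in Xist (1 and 3) and at 87.2 and 91.7 CPM in the others. With Xist level as a covariate, a setting chosen after seeing the data, Opa1 was called lower at -0.27 (adjusted p = 0.0429), the lowest of a range up to 0.704 over the alternatives tried. Oma1 (chr4:103313812-103371868, plus strand) read 15.96, 19.5 and 27.2 CPM in controls and 17.3 to 18.7 CPM in the DKO livers, a difference of -0.17 (SE 0.16, adjusted p = 0.495).

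The genes of the fission GTPase and 2 of its partners did not pass the test. Dnm1l (chr16:16312230-16358959, minus strand) stood at 38.0, 45.6 and 51.8 CPM in controls and at 46.3, 44.1, 46.6 and 45.5 CPM in the DKO livers, all inside the control range. Its difference was 0.01 (SE 0.11), with a 95% interval of -0.23 to 0.25. Mff (chr1:82724890-82752394, plus strand), a tail-anchored DRP1 adaptor, differed by 0.10 (interval -0.14 to 0.34, adjusted p = 0.592), with controls at 30.6 to 36.9 CPM and DKO livers at 35.0 to 40.9 CPM. Fis1 (chr5:136953275-136966234, plus strand), a small outer-membrane protein with a part in fission and mitophagy, differed by -0.05 (interval -0.28 to 0.18, adjusted p = 0.799), with DKO livers at 88.3 to 101 CPM inside the control range of 85.9 to 111 CPM. The upper bounds of these intervals leave room for a rise of up to 0.34 log2 units, and the interval for Opa1 lies below 0.

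The 3 genes that fell beside the mitofusins all act in fission. Mief2 and Mief1, also called MiD49 and MiD51, are paired outer-membrane receptors for DRP1, and Mtfp1, also called MTP18, is an inner-membrane protein needed for division. Mief2 (chr11:60728398-60732951, plus strand) read 28.7, 33.5 and 38.7 CPM in controls and 19.8, 17.7, 19.1 and 19.5 CPM in the DKO livers. No DKO liver reached the lowest control, and the level was 56.6% of control, a log2 difference of -0.82 (SE 0.10, adjusted p = 0.00053). Mief1 (chr15:80234018-80253371, plus strand) read 32.5, 35.1 and 37.0 CPM in controls and 27.2, 24.0, 29.97 and 24.6 CPM in the DKO livers. It was lower in all 4, at 75.8% of control, by -0.40 (SE 0.10, adjusted p = 0.023). Mtfp1 (chr11:4091480-4095445, minus strand) read 36.7, 39.6 and 48.2 CPM in controls and 19.6, 27.0, 17.1 and 22.1 CPM in the DKO livers. It too was lower in all 4, at 52.6% of control, by -0.93 (SE 0.22, adjusted p = 0.0225).

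In all, 5 of the 10 genes were called, all lower, where 9.87% of all genes tested were called, 5.23% higher and 4.64% lower. Since Mfn1 and Mfn2 were the targets, the count among the other 8 was 3. The median log2 difference of the 10 genes was -0.34, against 0.02 over all genes. Scaled by total counts instead, a setting chosen after seeing the data that moved the median of all genes to 0.21, Mief2 (-0.63) and Mtfp1 (-0.73) kept their calls and Mief1 did not (-0.21). The calls of Mfn1, Mfn2 and Mief2 held when any single control or Mfn DKO liver was left out. Mief1 missed the threshold without DKO 1 (-0.41, adjusted p = 0.0602), without DKO 2 (-0.35, 0.0769) and without DKO 4 (-0.38, 0.0629). Mtfp1 missed it without DKO 1 (-0.89, adjusted p = 0.0740), DKO 3 (-0.83, 0.0676) or DKO 4 (-0.96, 0.0512). Before TMM scaling, summed markers of other cell types stood higher in the same comparison. The 6 fibroblast and stellate cell markers summed to 285 to 351 CPM in DKO livers and 186 to 268 CPM in controls, none of them at 0 in any liver, and the 5 duct markers to 52.1 to 103 CPM against 26.8 to 59.6. The TMM factors, which these sums leave out, were 0.995 to 1.04 in DKO livers and 0.862 to 0.929 in controls. Scaling would thus bring the groups closer, and the separation of the fibroblast and stellate markers does not hold after it. The part of these markers in the lower fission genes was not tested. The 9 hepatocyte markers summed to 86059 to 104037 CPM in DKO livers, overlapping 87970 to 125893 CPM in controls.

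The stretches just upstream of the start sites of the 3 fission genes that fell, and of Opa1, are shown because Mief2, Mief1 and Mtfp1 moved together while Opa1, measured in the same libraries, was not called. Each is written 5′ to 3′ on the strand of its gene and ends at the base before the gene start in GENCODE M21, with the bases taken from the RefSeq promoter windows (GRCm38.p6). Capitals mark a match to a searched motif.
Mief2, chr11:60728148-60728397, plus strand: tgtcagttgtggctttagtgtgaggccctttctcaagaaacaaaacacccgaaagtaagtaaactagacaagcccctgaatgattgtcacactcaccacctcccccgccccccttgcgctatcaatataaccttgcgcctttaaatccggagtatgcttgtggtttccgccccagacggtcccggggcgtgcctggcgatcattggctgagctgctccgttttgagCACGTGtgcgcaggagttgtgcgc
Mief1, chr15:80233830-80234017, plus strand: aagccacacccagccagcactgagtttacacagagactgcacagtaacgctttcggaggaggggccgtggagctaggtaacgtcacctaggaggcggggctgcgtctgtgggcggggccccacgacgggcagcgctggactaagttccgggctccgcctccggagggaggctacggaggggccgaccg
Mtfp1, chr11:4095446-4095681, minus strand: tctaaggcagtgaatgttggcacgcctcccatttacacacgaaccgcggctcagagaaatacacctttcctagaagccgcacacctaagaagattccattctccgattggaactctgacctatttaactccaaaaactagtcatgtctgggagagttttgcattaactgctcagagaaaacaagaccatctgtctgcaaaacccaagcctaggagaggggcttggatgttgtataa
Opa1, chr16:29579084-29579333, plus strand: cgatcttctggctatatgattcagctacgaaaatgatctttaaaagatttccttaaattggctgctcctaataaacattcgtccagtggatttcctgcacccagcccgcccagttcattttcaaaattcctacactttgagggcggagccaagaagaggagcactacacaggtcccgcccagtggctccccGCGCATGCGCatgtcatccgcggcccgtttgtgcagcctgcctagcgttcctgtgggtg
The 7 motifs were searched on both strands of the RefSeq promoter windows, which run past the start site, and all 10 genes had a window. The Mief2 stretch holds the E-box CACGTG, which 7.15% of all 32851 windows hold. The Opa1 stretch holds the capitalised NRF1 motif, present in 4.60% of windows, and the window of Oma1 holds it too. The ETS motif CCGGAAGT, in 3.89% of windows, was found in the windows of Mfn1, Fis1 and Mief1, where the 2 matches run past the end of the stretch shown. The Mtfp1 window held none of the 7, and Mief2, Mief1 and Mtfp1 shared none. The other 4 motifs, TGATGNAA for ATF4 (3.97% of windows), TCAAGGTCA for ERR (0.423%), CAAAGTCCA for HNF4A (0.475%) and the CRE TGACGTCA (1.79%), were in no window of the 10 genes.

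The Tfam KO livers share their 6 controls with the Mfn DKO comparison. Here the mitofusins were not called, Mief2, Mief1 and Mtfp1 were again called lower, and the fission GTPase gene Dnm1l and its adaptor Mff were called higher. Tfam, the targeted gene, was 58.9 ± 4.02 CPM in controls (SD, n = 6) and 14.7 ± 1.42 CPM in Tfam KO livers (SD, n = 3), or 24.9% of control. Mief2 read 19.1, 17.2 and 21.2 CPM in Tfam KO 1 to 3, all below the lowest control of 28.7 CPM. The difference was -0.81 (SE 0.11, adjusted p = 0.00076), or 57.0% of control. Dnm1l read 54.7, 73.3 and 52.9 CPM, all above the highest control of 51.8 CPM, a difference of 0.41 (SE 0.12, adjusted p = 0.0207). Mff read 46.8, 57.8 and 37.4 CPM against a highest control of 36.9 CPM, a difference of 0.43 (SE 0.12, adjusted p = 0.0179). For both genes Tfam KO 2 was the highest library and Tfam KO 3 lay just above the controls.

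Mtfp1 read 24.8, 13.4 and 36.6 CPM in the Tfam KO livers and Mief1 read 32.3, 26.3 and 25.4 CPM. Both groups ended just below the lowest control, at 36.7 CPM for Mtfp1 and 32.5 CPM for Mief1. Mtfp1 differed by -0.71 (SE 0.24, adjusted p = 0.0440) and Mief1 by -0.32 (SE 0.11, adjusted p = 0.0393). Mfn1, at 99.6, 81.9 and 75.5 CPM, differed by 0.08 (SE 0.15, adjusted p = 0.707), and Mfn2, at 124, 122 and 134 CPM, by -0.31 (SE 0.16, adjusted p = 0.166). Both overlapped the controls. Opa1 at -0.17 (SE 0.13), Oma1 at -0.02 (SE 0.17) and Fis1 at 0.19 (SE 0.12) did not pass the test either. The Mfn2 to Mfn1 ratio in TPM was 1.77 ± 0.312 (SD, n = 3), from 1.47 to 2.09, and overlapped the control range.

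The count was again 5 of 10, with 2 higher and 3 lower, but in this comparison 29.3% of all genes were called, 18.1% higher and 11.3% lower. The median of the 10 was -0.10, against 0.03 over all genes. Much of the count rested on the library that stood apart. Without Tfam KO 2 only Mief2 was called, at -0.74 (SE 0.12, adjusted p = 0.00374), and the share called over all genes fell to 14.5%. Mff then stood at 0.27 (adjusted p = 0.125), Dnm1l at 0.25 (0.141), Mtfp1 at -0.41 (0.157) and Mief1 at -0.27 (0.154). The fits without control 1, 5 or 6 called 23.1%, 26.1% and 23.5% of all genes. The count was 3 in each, since Mief1 (adjusted p = 0.0520, 0.0542 and 0.0584) and Mtfp1 missed the threshold there. Mief1 also missed it without Tfam KO 3 (0.0814). Mtfp1 kept its call in 1 of the 9 fits that left out a library, the one without Tfam KO 3 (-1.11, adjusted p = 0.00194). That fit called 41.8% of all genes, the most of the 9. Scaled by total counts, the median of all genes was 0.46, and relative to it Mief2 (-0.39, called), Mtfp1 (-0.35, not called) and Mief1 (0.11, the opposite sign) stayed lower and Dnm1l (0.88) and Mff (0.90) higher. Before TMM scaling, fibroblast and stellate markers summed to 282 to 302 CPM in the Tfam KO livers, above every control. That separation does not hold after scaling, since the TMM factor of Tfam KO 2 was 1.43, against 0.862 to 0.929 in controls. Also unscaled, the 5 endothelial markers summed to 227 to 289 CPM against 176 to 221 in controls, and duct markers to 30.4 to 178 CPM. The endothelial gap does not hold after scaling either. The part of these shifts was not tested.

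**Figure D2:**
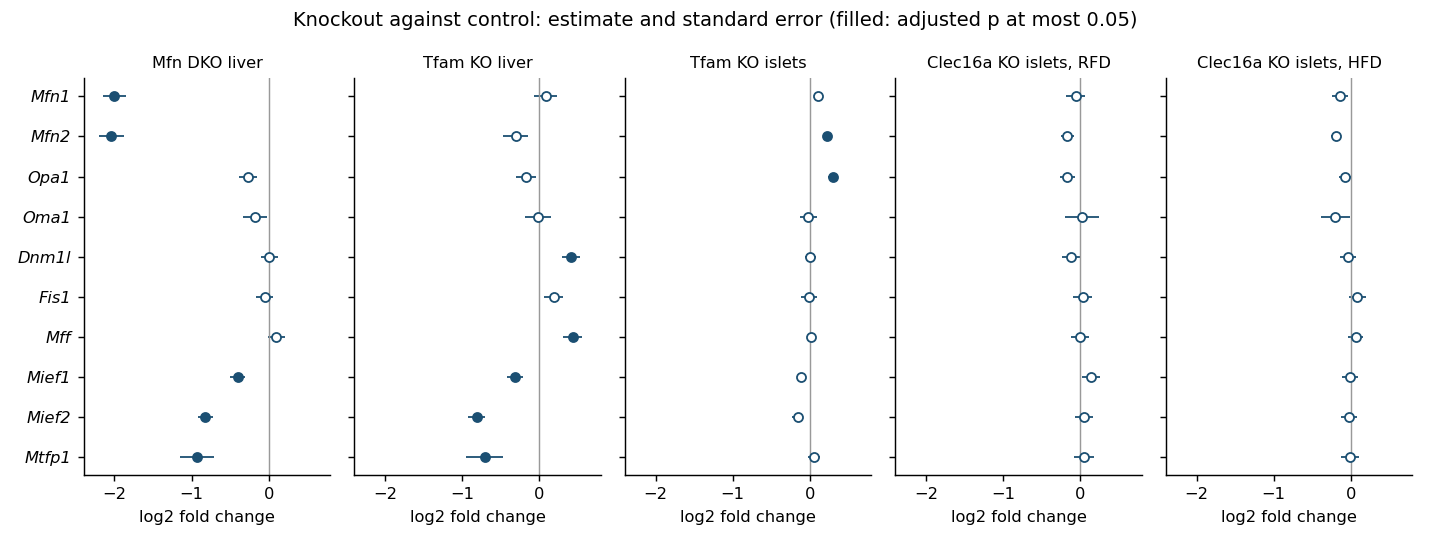
Log2 fold change with SE for each of the 10 genes in the 5 knockout comparisons. Filled points have an adjusted p of at most 0.05 in edgeR's quasi-likelihood test. Mief2 is filled at -0.82 and -0.81 in both liver knockouts, and Mfn2 (0.23) and Opa1 (0.30) are filled in Tfam islets.

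Set directly against each other, the 2 liver knockouts differed in their mitofusins and not detectably in the fission genes that were low in both. Mfn1 was higher in Tfam KO than in Mfn DKO livers by 2.09 (SE 0.16, adjusted p = 4e-05) and Mfn2 by 1.73 (SE 0.17, adjusted p = 0.00037). These 2 were the calls among the 10, both higher, with 0.294% of all genes called, 0.106% higher and 0.188% lower. Mief2 differed by 0.01 (SE 0.11, 95% interval -0.23 to 0.26), Mief1 by 0.08 (-0.16 to 0.33) and Mtfp1 by 0.22 (-0.33 to 0.77). Dnm1l was higher in all 3 Tfam KO livers than in all 4 DKO livers, by 0.40 (SE 0.13), but its adjusted p was 0.126, and Mff stood at 0.34 (SE 0.13, adjusted p = 0.18). Without Tfam KO 3 both were called, Dnm1l at 0.48 (adjusted p = 0.0245) and Mff at 0.47 (0.0125), in a fit that called 4204 of all 17552 genes tested, or 24.0%. The fits without any other single library of these 2 groups called 24 to 49 genes. Without Tfam KO 2 Dnm1l stood at 0.24 (adjusted p = 0.451) and Mff at 0.17 (0.614), the highest adjusted p over the alternatives tried.

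In the Tfam KO islets the outer-membrane fusion gene Mfn2 and the inner-membrane fusion gene Opa1 rose to 1.17 and 1.23 times control. These 2 of the 10 genes were called, beside 20.9% of all genes. Mfn1, Oma1 and the fission genes among the 10 did not pass the test. Of 11 other genes that help fission, given further below, 6 were called higher. Tfam was 39.8 ± 2.26 CPM in control islets (SD, n = 8) and 17.2 ± 1.11 CPM in Tfam KO islets (SD, n = 6), a difference of -1.21 (SE 0.06), or 43.3% of control. Mfn2 ranged from 89.3 to 109.8 CPM over the 8 controls, with a median of 107 CPM. It ranged from 118 to 128 CPM over the 6 KO libraries, with a median of 123 CPM, so every KO library of both sexes lay above every control. With sex in the fit, the difference was 0.23 (SE 0.05, adjusted p = 0.0049), a 1.17-fold rise. Opa1 read 67.5, 86.9 and 91.1 CPM (lowest, median and highest) in controls and 98.1, 104 and 112 CPM in KO islets. These groups did not overlap either, at 0.30 (SE 0.07, adjusted p = 0.0036), a 1.23-fold rise. Both calls held without any single library, with adjusted p from 0.00146 to 0.0135 for Mfn2 and from 0.00107 to 0.0125 for Opa1.

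The remaining genes overlapped between Tfam KO and control islets. Mfn1, at 38.4 to 45.4 CPM in controls and 42.2 to 48.4 CPM in KO islets, differed by 0.10 (adjusted p = 0.121). Mief1 at -0.11 (adjusted p = 0.121) and Mief2 at -0.15 (0.148) were the lowest, and Mtfp1 stood at 0.06 (0.698). Dnm1l and Mff, each at 0.01, and Fis1 at -0.01 and Oma1 at -0.02 lay closest to 0. The count of 2 of 10, both higher, compares with 20.9% of all genes called, 11.6% higher and 9.29% lower, and the medians were 0.01 for the 10 and -0.01 for all genes. Scaled by total counts, the median of all genes was 0.20, and Mfn2 (0.43) and Opa1 (0.50) stood above it, while Mfn1 (0.31), Mtfp1 (0.27) and Mff (0.23) were then also called. The 8 beta cell markers summed to 104277 to 137604 CPM in KO islets and 163284 to 234814 CPM in controls. The 5 duct markers summed to 313 to 438 CPM against 213 to 309, and the 6 T and B cell markers to 1.98 to 5.65 CPM against 9.04 to 14.1. The TMM factors left out of these sums were 1.06 to 1.12 in KO and 0.834 to 0.982 in control islets. The gap in duct markers does not hold after that scaling. Whether these shifts bear on Mfn2 and Opa1 was not tested.

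By sex, Mfn2 and Opa1 were called in females, at 0.25 (SE 0.07, adjusted p = 0.0220) and 0.35 (SE 0.08, adjusted p = 0.0112), where 10.8% of all genes were called, 6.67% higher and 4.17% lower. In females the Mfn2 call was lost without KO female 2 (adjusted p = 0.0639), 3 (0.0652) or 4 (0.0543). In males, with 3 control and 2 KO libraries, Mfn2 stood at 0.18 (SE 0.09, adjusted p = 0.237) and Opa1 at 0.21 (SE 0.11, 0.274). There edgeR called 0 of 10, DESeq2 called 1, 1 gene had an unadjusted p under 0.05, and 8.93% of all genes were called. The test of the difference between the sexes called 0 of 10 in edgeR and in DESeq2, with 0 at an unadjusted p under 0.05 and 0% of all genes called. Its values were -0.07 (SE 0.11) for Mfn2 and -0.14 (SE 0.14) for Opa1.

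**Figure D3:**
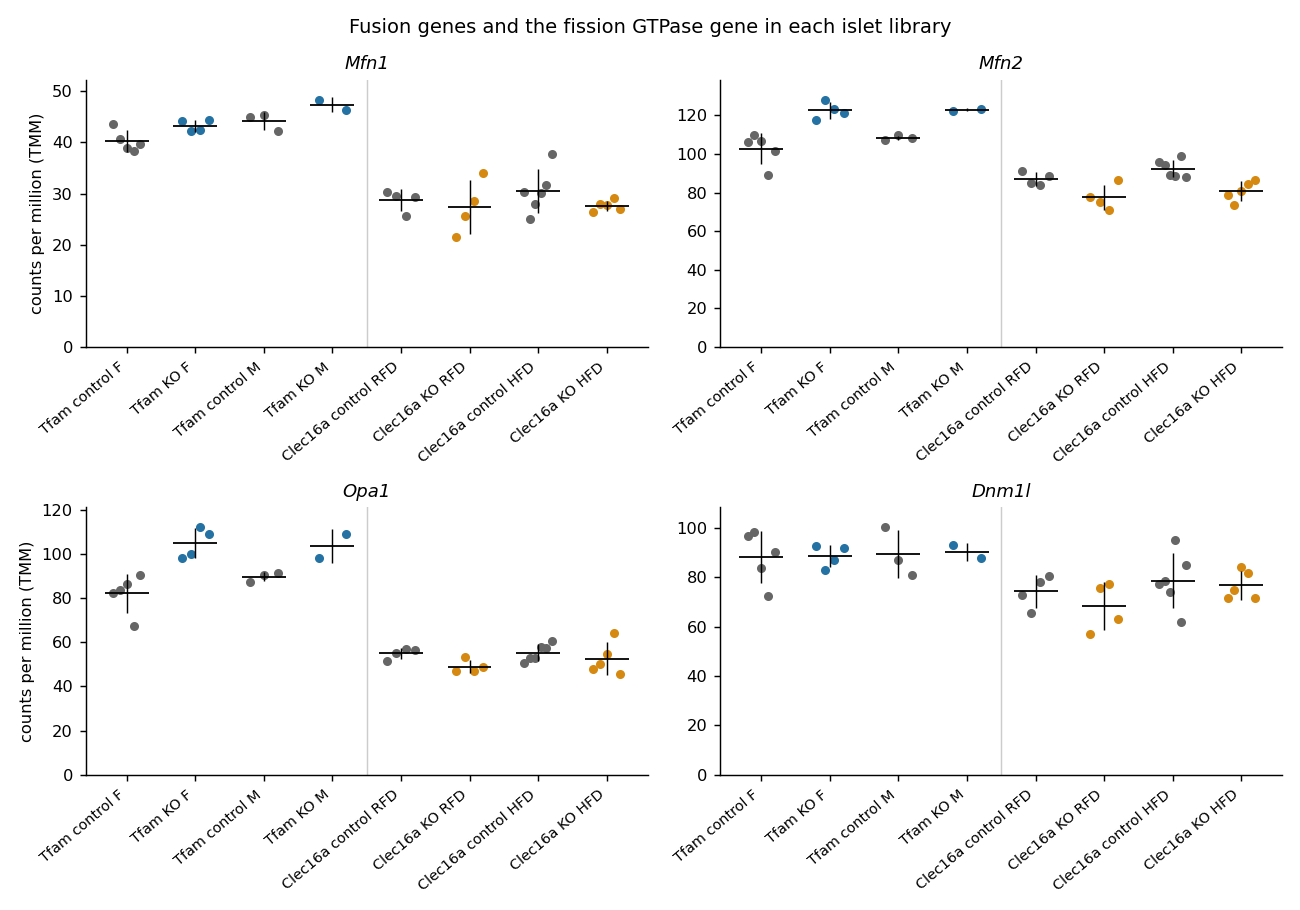
Levels of Mfn1, Mfn2, Opa1 and Dnm1l in CPM in every islet library of the 8 islet groups, as points, with group means and SD. In the Tfam islets the KO libraries lie above the controls for Mfn2 (118 to 128 against 89.3 to 109.8 CPM) and Opa1 (98.1 to 112 against 67.5 to 91.1 CPM), and the Clec16a groups overlap for Mfn1, Opa1 and Dnm1l.

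In the Clec16a islets none of the 10 genes passed the test on either diet. The targeted transcript did not mark the genotype. Clec16a was 24.3 ± 3.71 CPM in controls and 26.5 ± 2.74 CPM in libraries labelled KO on RFD (SD, n = 4 each), and 26.6 ± 3.60 (n = 6) and 28.1 ± 3.31 CPM (n = 5) on HFD. Whether the counted reads cover the deleted part is not given in the sources used here, so directions below are those of the libraries labelled Clec KO. On RFD, edgeR and DESeq2 each called 0 of 10, 1 gene had an unadjusted p under 0.05, and 7.52% of all genes were called. On HFD edgeR called 0, DESeq2 1, 1 gene had an unadjusted p under 0.05, and 9.57% of all genes were called. The log2 differences of the 10 genes ran from -0.17 to 0.14 on RFD and from -0.20 to 0.08 on HFD.

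Mfn2 came nearest to a call, in the direction opposite to the Tfam islets. On RFD it read 91.1, 84.9, 83.7 and 88.4 CPM in controls and 77.9, 74.8, 71.1 and 86.4 CPM in libraries labelled KO. KO 4 lay among the controls, and the difference was -0.17 (SE 0.08, adjusted p = 0.216). On HFD, controls stood at 87.8, 91.7 and 98.7 CPM and libraries labelled KO at 78.8, 73.5, 80.8, 84.5 and 86.5 CPM. These groups did not overlap, at -0.19 (SE 0.07), but the adjusted p was 0.0758 in edgeR and 0.0298 in DESeq2's Wald test, and 0.0425 in edgeR without KO HFD 4, within a range of 0.0298 to 0.594 over the alternatives tried. Within sequencing lanes 7 and 8, read from the file names, the Mfn2 difference was -0.17 and -0.20 on each diet, with 1 KO library in lane 8 on RFD. Mfn1 stood at -0.06 (SE 0.12) on RFD and -0.14 (SE 0.11) on HFD, and Opa1 at -0.17 (SE 0.10) and -0.07 (SE 0.08). The 5 endothelial markers summed to 481 to 589 CPM in the RFD libraries labelled KO and 269 to 308 CPM in their controls. Fibroblast markers (52.2 to 97.0 against 40.8 to 48.0 CPM) were also above every RFD control, and macrophage (89.3 to 121 against 129 to 167) and T and B cell markers (3.22 to 6.95 against 8.69 to 18.9) below. On HFD these 4 lists overlapped between the groups, as did the beta cell markers, at 137667 to 235710 CPM in libraries labelled KO and 220326 to 286977 CPM in controls. The part of these markers was not tested.

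Diet left the 10 genes without a call. HFD against RFD gave 0 of 10 in control islets (0.0406% of all genes called) and 0 of 10 in islets labelled KO (0.0116%), by edgeR and DESeq2, with 0 at an unadjusted p under 0.05. The test of whether the genotype difference depended on diet also gave 0 of 10 by both tools, with 0 at an unadjusted p under 0.05 and 0% of all genes called.

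Transcript levels per length placed the 10 genes in a similar order in both tissues at the top and in another order below. In control livers, mean TPM fell from Fis1 (123 ± 8.91, SD, n = 6) through Mfn2 (64.3), Mtfp1 (50.2), Opa1 (32.3), Mfn1 (28.2), Mief2 (26.5), Oma1 (20.5), Dnm1l (18.6) and Mief1 (9.21) to Mff (7.67). Neighbours with ranges apart were Fis1 and Mfn2, Mtfp1 and Opa1, Dnm1l and Mief1, and Mief1 and Mff, and the other neighbours overlapped. In the 18 control islets the order was Fis1 (89.6 ± 8.56, SD), Mfn2 (39.2), Dnm1l (33.4), Mtfp1 (19.3), Opa1 (18.4), Mff (16.9), Oma1 (14.9), Mfn1 (12.1), Mief2 (8.71) and Mief1 (7.26). There only Fis1 stood apart from its neighbour. These means pool the controls of both islet experiments, and below the 3 highest genes their order held in neither. Opa1 averaged 23.1 TPM in Tfam controls (n = 8), above Mff (18.2) and Mtfp1 (18.0), and 14.6 TPM in Clec16a controls (n = 10), below Mtfp1 (20.3) and Mff (15.9). Mief1 lay above Mief2 in the Tfam controls (9.0 and 8.38) and below it in the Clec16a controls (5.86 and 8.97). The DRP1 gene Dnm1l ranged from 22.9 to 43.3 TPM in control islets and 16.1 to 21.3 in control livers, and Mff from 12.6 to 19.6 and 7.14 to 8.10. Mief2 lay the other way, at 6.74 to 10.8 TPM in control islets and 23.3 to 30.5 in control livers. Tissue and experiment cannot be told apart and TPM carries no TMM scaling, so no test was made between tissues.

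**Figure D4:**
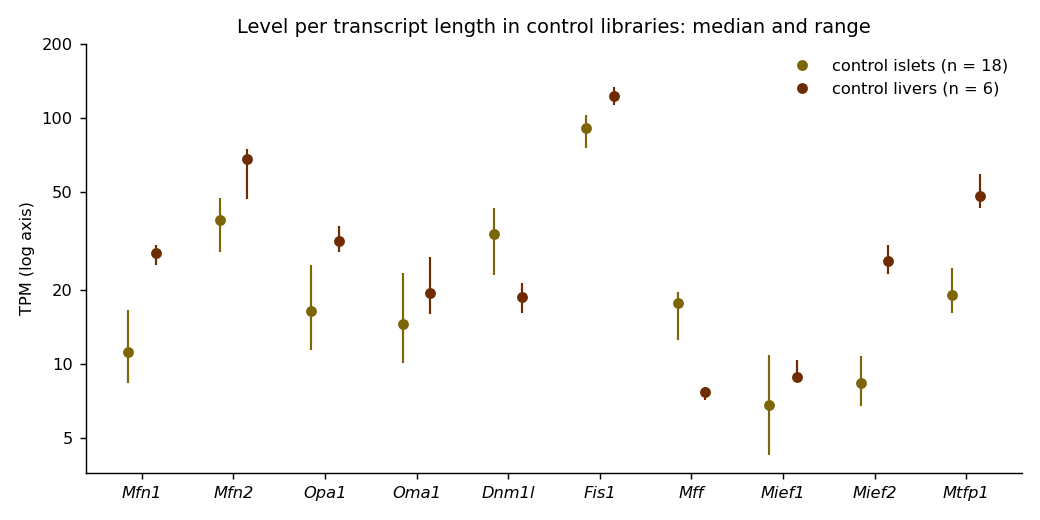
TPM of each of the 10 genes on a log axis in control islets (n = 18) and control livers (n = 6), with points at medians and lines from the lowest to the highest library. Fis1 is the highest gene in both tissues, Dnm1l and Mff lie higher in islets, and Mief2, Mtfp1 and Mfn1 lie higher in livers.

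Other genes of the pathway were read from 6 lists holding 50 genes, of which 49 were tested in the livers. In Mfn DKO livers 0 were called higher and 3 lower, beside 5.23% and 4.64% of all genes. The 3 were Parl, a rhomboid protease of the inner membrane, at -0.48 (SE 0.10, adjusted p = 0.0141), the cristae genes Apool at -0.42 (SE 0.09, 0.0145) and Mtx1 at -0.52 (SE 0.12, 0.0180). Parl read 32.5, 38.0, 33.2 and 34.6 CPM in the DKO livers and 41.2 to 56.5 CPM in controls. No list gene was called without DKO 1, where 4.05% of all genes were called. DESeq2's Wald test called 3 higher and 6 lower, the fit of only the compared groups 5 and 8, and scaling by total counts 2 and 0. Over all genes these 3 settings called 2870 of 17024, 4338 of 16080 and 2009 of 17024. The 6 fusion helpers, such as Miga1, Miga2 and Mtch2, gave 0 calls in either direction, with a list median of -0.07 beside 0.02 over all genes.

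In Tfam KO livers 13 of the 49 were called higher and 6 lower, beside 18.1% and 11.3% of all genes. The counts were 7 and 3 without Tfam KO 2, 5 and 2 without Tfam KO 1, 21 and 7 without Tfam KO 3, and 36 and 1 when scaled by total counts. The calls over all genes moved as well, to 14.5%, 19.1% and 41.8% in those 3 fits and to 8154 of 17024 by total counts. Higher genes included Spire1, an actin nucleator at division sites, Miga1, an outer-membrane fusion helper, Chchd6, a subunit of the cristae complex MICOS, and Cs, citrate synthase (0.84, SE 0.19, adjusted p = 0.00696). Chchd6 read 9.75, 14.2 and 8.79 CPM in Tfam KO livers against 2.38 to 4.80 CPM in controls, a difference of 1.42 (SE 0.24, adjusted p = 0.00183) and 1.18 without Tfam KO 2. Miga1 read 5.59, 20.4 and 4.18 CPM against 1.48 to 3.55, and its difference of 2.06 (SE 0.41, adjusted p = 0.00376) came to 1.02 without Tfam KO 2. Spire1 read 4.15, 15.3 and 1.77 CPM against 0.548 to 1.74, and its 2.80 (SE 0.52, adjusted p = 0.00305) came to 1.55. Among those lower, the transport adaptor Trak1 stood at -0.63 (adjusted p = 0.00422) and Mtx1 at -0.61 (0.00542). Scaled by total counts, Trak1 (-0.22) and Mtx1 (-0.20) were no longer called. Against the Mfn DKO livers, 0 of the 49 were called by edgeR, 18 had an unadjusted p under 0.05, and DESeq2 called 9 higher and 0 lower. With edgeR 18 were called higher and 1 lower there without Tfam KO 3, and 12 and 0 when scaled by total counts. Of all 17024 genes DESeq2 called 1087 and scaling by total counts 1226, and the fit without Tfam KO 3 called 24.0% of those it tested.

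In Tfam KO islets, 16 of the 50 were called higher and 2 lower, beside 11.6% and 9.29% of all genes. When scaled by total counts 32 were called higher and 0 lower, beside 6825 of all 19752 genes called. The 2 lower after TMM scaling were both fusion helpers. Miga1 ranged from 46.2 to 50.6 CPM in KO islets and from 53.6 to 61.2 CPM in controls, at -0.22 (SE 0.05, adjusted p = 0.0024), and Miga2 stood at -0.29 (SE 0.07, 0.0062). Neither was called when scaled by total counts (-0.02 and -0.09). Of the 11 fission helpers 6 were called higher and 0 lower, with a list median of 0.31 beside -0.01 over all genes. They included Mtfr1, a fission regulator, at 57.0 to 62.0 CPM against 42.5 to 46.4 (0.39, SE 0.04, adjusted p = 5.5e-06), and the ubiquitin ligase Marchf5, at 85.2 to 102 CPM against 59.4 to 76.0 (0.48, SE 0.06, 2.4e-05). Vdac3, an outer-membrane channel, moved most among the named content markers, from 44.9 to 55.4 CPM in controls to 91.4 to 127 CPM in KO islets (1.21, SE 0.07, adjusted p = 5.1e-09). In females 11 of the 50 were called higher and 1 lower, beside 6.67% and 4.17% of all genes. In males 4 were called higher and 1 lower, beside 8.93% of all genes called in either direction. The test between the sexes called 0 by edgeR and DESeq2, with 1 at an unadjusted p under 0.05, and edgeR called 0% of all genes.

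In the Clec16a islets 2 of the 50 were called on RFD and 4 on HFD, beside 7.52% and 9.57% of all genes. On RFD 1 was higher, the mitochondrial phospholipase gene Pld6, and 1 lower, the channel gene Vdac1. Pld6 was low, at 2.35 to 3.37 CPM in libraries labelled KO and 0.845 to 1.76 CPM in controls, a difference of 1.25 (SE 0.27, adjusted p = 0.0106). Vdac1 stood at 93.0 to 99.5 CPM against 127 to 145 (-0.50, SE 0.11, adjusted p = 0.0094). On HFD the same direction was called for Pld6 at 1.26 (SE 0.24, adjusted p = 0.0028) and Vdac1 at -0.56 (SE 0.09, 0.0012). Inf2 at 0.79 (adjusted p = 0.0132) and Mtch2 at -0.30 (0.0431) were also called on HFD. Inf2 lost its call without KO HFD 2, and Mtch2 in 7 of the fits that left out a library. The 2 diet comparisons and their interaction gave 0 calls in the lists by edgeR and DESeq2. At an unadjusted p under 0.05 there were 2 for diet in libraries labelled KO and 0 in the others.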

How the data were processed

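RNA was sequenced on paired-end libraries, and each library has a deposited table of counts, TPM and CPM for 55487 genes. The submitters' processing notes name GRCm38, STAR 2.6.1b, RSEM 1.3.1, featureCounts, FastQC, MultiQC and DESeq2 without roles; annotation release and strand setting are not given in the sources used here. Per the file headers, the counts are raw counts per gene, the CPM values made by the authors equal count over library total, and the TPM values deposited beside them are scaled for transcript length. TPM was used to compare genes within a library and to describe levels in control islets and control livers. It carries no TMM scaling. No column of per-sample values was left unused (0). Symbols were taken from the files, positions from GENCODE M21 (55141 identifiers matched) and promoter windows from RefSeq (GRCm38.p6). Genes that overlap a member on either strand were at most 1.29 CPM.

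The Tfam islets, Clec16a islets and livers were fitted separately in edgeR 4.0.16 (R 4.3.3) with TMM scaling, filterByExpr and a mean per group, with sex added for the Tfam islets over both sexes. This tested 19752, 17254 and 17024 genes in the 3 experiments. SE is the log2 fold change over the root of the F statistic, and 95% intervals use the t distribution at the degrees of freedom of the fit (13.1 in livers). The scripts were tested on simulated data. Alternatives were DESeq2 1.42.0 and its size factors, other filters, covariates, lane, replicate block, only the compared groups and each library left out. The genes named are the 10, Tfam, Clec16a and, from each of 6 pathway lists, at most the 3 called genes with the smallest adjusted p per comparison. The 10 genes and all lists were chosen with earlier results of these data known, so their counts and medians are descriptions. The main fits did not pair libraries by replicate number.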

Additional observations from a re-analysis of the deposited data

Results flagged for a closer look

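Of 80 groups of 4 or more libraries examined for the 10 genes, 7 held a library whose gap to its nearest neighbour was large against the range of its group by Dixon's 95% criterion. Chance alone would mark about 1 in 20 groups. Oma1 read 17.3 CPM in Mfn DKO liver 4, with the next library at 18.5 CPM. Mff, the DRP1 adaptor gene, read 30.6 CPM in control liver 5, with the next at 35.2 CPM, and 98.0 CPM in Tfam control female islets 4, with the next at 81.9 CPM. Mief1 read 29.6 CPM in Clec KO RFD islets 4, with the next at 24.6 CPM. Mief2 stood out in 3 Clec16a islet groups, at 13.8 CPM in KO HFD 5 (next 11.3), 13.5 CPM in control HFD 6 (next 11.6) and 13.9 CPM in control RFD 1 (next 11.4).

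The fusion genes Mfn2 and Opa1 differed from control in opposite directions under the label Tfam KO in the 2 tissues. Mfn2 stood at 0.23 on the log2 scale in islets and at -0.31 in livers, and Opa1 at 0.30 in islets and at -0.17 in livers. Only the islet values passed the test. Scaled by total counts, the liver values were 0.12 for Mfn2 and 0.26 for Opa1, of the same sign as in islets. The tissues belong to separate experiments, and the difference was not tested.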

How the results depend on the processing

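Of the counts of called genes under an alternative, 199 stayed within 1.5 times of the reported count and 25 did not; of single-gene values, 1429 kept direction and side of the threshold, 48 changed sign, 14 gained and 148 lost a call. Scaling by total counts without TMM, chosen after seeing the data, called 5 members in Tfam islets over both sexes, 5 in females, 1 in males and 4 in Tfam KO against Mfn DKO livers, with median log2 changes of all genes of 0.197 in Tfam islets, 0.118 in Clec16a islets on HFD, 0.211 in Mfn DKO livers, 0.457 in Tfam KO livers and 0.249 between the knockouts. Over all genes this scaling called 6825, 4766 and 3169 of 19752 in those islets and 1226 of 17024 between the knockouts. It turned the sign of Oma1 (0.18), Fis1 (0.21), Mief1 (0.094) and Mief2 (0.054) in Tfam islets, Opa1 (0.044) in Clec16a islets on HFD, Oma1 (0.023) and Fis1 (0.15) in Mfn DKO livers, and Mfn2 (0.12), Opa1 (0.26), Oma1 (0.45) and Mief1 (0.11) in Tfam KO livers. With no filter on low counts 1 member was called in Tfam females and 2 in Tfam KO livers, beside 2057 of 34333 and 4201 of 31126 genes. Fitting only the compared groups gave 1 and 1, beside 1704 of 17675 and 3228 of 16449 genes. The exocrine covariate gave 1 in females, beside 1764 of 19752 genes, and a Mfn1 difference of 0.00142 in Clec16a islets on RFD. DESeq2's Wald test called 1 in Tfam males and 1 in Clec16a islets on HFD, beside 2708 of 19752 and 2128 of 17254 genes. With Xist as a covariate Oma1 was 0.060 in Tfam KO livers, and with at least 10 counts in every library Mief2 was -0.0032 in Tfam KO against Mfn DKO livers. The cause of these changes was not tested. Leaving out 1 library at a time gave counts of 0 to 1 in Clec16a islets on HFD, 1 to 2 in Tfam females, 3 to 5 in Mfn DKO livers, 1 to 4 in Tfam KO livers and 2 to 4 in Tfam KO against Mfn DKO livers. In that order, 786 to 3369, 1336 to 2626, 686 to 1444, 2504 to 7330 and 24 to 4204 of all genes were called. The values that changed sign with a library left out ranged in Tfam islets from -0.031 to 0.036 for Dnm1l, -0.060 to 0.065 for Fis1, -0.0059 to 0.052 for Mff and -0.059 to 0.051 for Oma1. In Mfn DKO livers Dnm1l ranged from -0.042 to 0.048, in Clec16a islets on RFD Mfn1 from -0.18 to 0.043, and in Tfam KO livers Mfn1 from -0.039 to 0.15 and Oma1 from -0.19 to 0.071. In Tfam KO against Mfn DKO livers Mief1 ranged from -0.034 to 0.15, Mief2 from -0.071 to 0.085, Mtfp1 from -0.17 to 0.52 and Oma1 from -0.017 to 0.24.

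Replicate numbers are shared between groups, and the labels do not say whether they pair the libraries. Residuals of same-numbered libraries correlated at a median of 0.0653 in Tfam islets (-0.153 to 0.212 over 16 pairs). The median was -0.0163 in Clec16a islets (-0.253 to 0.307 over 25) and 0.0873 in livers (-0.343 to 0.350 over 10). In that order, the medians for libraries of other numbers were -0.0117, -0.0123 and -0.0450. A weak pairing cannot be told from none by these values. With the replicate block 3 members were called in Mfn DKO livers, 1 in Tfam KO livers and 1 in Tfam KO against Mfn DKO livers, where Mief2 was -0.021, and Fis1 was 0.014 in Tfam islets. Of all 17024 genes the block called 169, 395 and 6 in the 3 liver comparisons. With 2 to 6 libraries per group, differences smaller than the intervals printed were not detectable.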

Other observations

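Xist, the transcript that silences one X chromosome in female cells, divided the livers, whose sex is not labelled, into 7 libraries at 380 to 788 CPM and 6 at 0.0847 to 0.705 CPM. Each liver group held both kinds. Within the controls, with 3 livers of each kind, Mfn2, Oma1, Mief2, Mfn1, Dnm1l and, as given above, Opa1 did not overlap between them. Fis1, Mff, Mief1 and Mtfp1 overlapped. The share of all genes that do not overlap was not counted, so the split cannot be read as particular to these genes. Mfn2 read 172 to 191 CPM in the livers low in Xist and 113 to 154 CPM in the others, Oma1 21.5 to 27.2 and 15.96 to 17.6 CPM, and Mief2 34.3 to 38.7 and 28.7 to 32.6 CPM. Mfn1 read 83.3 to 88.3 and 67.8 to 81.7 CPM, and Dnm1l 45.7 to 51.8 and 38.0 to 45.4 CPM. Each of these was higher in the livers low in Xist. In the Mfn DKO livers the order of the mitofusins was the other way. Mfn1 read 15.6 and 17.8 CPM in the DKO livers low in Xist (1 and 3) and 21.8 and 25.4 CPM in those high in it (2 and 4), and Mfn2 read 32.3 and 36.6 against 38.4 and 45.1 CPM. These values were noticed in the data, and no test was made.

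Miga1, an outer-membrane protein that promotes fusion, was chosen here after its values were seen. It read 4.57, 5.76, 5.24 and 5.32 CPM in the Mfn DKO livers and 1.48 to 3.55 CPM in the 6 controls. All 4 DKO livers lay above every control, at a log2 difference of 1.12 (SE 0.38), but the adjusted p was 0.0803. Its paralog Miga2 stood at -0.60 (SE 0.22, adjusted p = 0.0970).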
